A study of Homo sapiens with 21 samples.

Results

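The globin genes of the human alpha and beta clusters were followed across 21 RNA-seq libraries of K562, an established erythroleukaemia line. The 10 genes were taken by symbol. On chromosome 16 they are HBZ, HBM, HBA2, HBA1 and HBQ1, and on chromosome 11 they are HBE1, HBG2, HBG1, HBD and HBB. All 10 are among the 61541 genes of the gene count table. In the exon bin files they fall under 7 of 57300 names and 164 of 685251 bins, because some names join overlapping genes. The series has 7 groups of 3 libraries in 3 experiments. Groups labelled NMYB overexpression and MYB overexpression are set against empty vector, the group labelled 34kn against 34knContol, and the group labelled 34kp against 34kpContol (all names as spelled in the labels). Per the series' design text, 34kn and 34kp are enhancer RNAs from an enhancer 34 kb upstream of MYB, each overexpressed. The labels give no construct, promoter, dose or time, and do not tell whether replicates came from separate cultures. P-values thus cover only the scatter of these libraries, which may be technical.

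Haemoglobin joins chains of the alpha type with chains of the beta type around haem. The genes of each cluster lie in the order in which they are used in development, under control of distant upstream enhancers. HBZ and HBE1 encode the embryonic chains zeta and epsilon, HBG2 and HBG1 the fetal gamma chains, HBA2 and HBA1 the alpha chains of fetal and adult life, HBB the adult beta chain and HBD the minor adult delta chain. HBQ1 (theta) and HBM (mu) are transcribed members of the alpha cluster whose part in haemoglobin is not established. K562 cells are known for embryonic and fetal globin expression with little or no HBB, and MYB is a known regulator of fetal globin levels in red cell precursors.

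Neighbouring globin genes are near-copies, which decides how far counts can be given to 1 of them. Exon 2 is shown for both pairs of near-identical genes, since it is wholly coding and most counts of HBA2 fell on it. The sequences are from GENCODE 29 transcripts on GRCh38, read 5′ to 3′ along the gene, with capitals at bases that differ within a pair. HBA2 (chr16:173125-173329, plus strand) and HBA1 (chr16:176929-177133, plus strand) have the same 205 bases, with 0 differences.
HBA2 and HBA1 exon 2: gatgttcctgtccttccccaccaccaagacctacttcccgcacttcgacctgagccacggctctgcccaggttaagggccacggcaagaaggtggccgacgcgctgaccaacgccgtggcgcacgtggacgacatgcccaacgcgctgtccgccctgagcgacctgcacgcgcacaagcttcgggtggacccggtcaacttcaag
HBG2 (chr11:5254292-5254514, minus strand) and HBG1 (chr11:5249368-5249590, minus strand) differ at 1 of 223 bases.
HBG2 exon 2: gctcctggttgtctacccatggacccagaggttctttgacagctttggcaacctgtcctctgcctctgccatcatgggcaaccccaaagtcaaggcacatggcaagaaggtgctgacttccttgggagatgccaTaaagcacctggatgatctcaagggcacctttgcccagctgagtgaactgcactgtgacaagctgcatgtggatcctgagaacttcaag
HBG1 exon 2: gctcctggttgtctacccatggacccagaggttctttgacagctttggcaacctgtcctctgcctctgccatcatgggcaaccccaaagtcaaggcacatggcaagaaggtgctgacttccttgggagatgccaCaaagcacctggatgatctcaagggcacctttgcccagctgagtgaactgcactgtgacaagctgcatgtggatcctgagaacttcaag
HBD and HBB differ at 12 of 223 bases of the same exon. Over whole transcripts, 81.8% of the 50-base stretches of HBA2, 78.6% of those of HBG2 and 67.0% of those of HBG1 also occur in another gene, against 2.98% for HBD and 2.94% for HBB, and none for HBQ1 and HBM. GENCODE 29 further lets long transcripts of 1 gene run over the exons of the next, so that 90.0% of the exon bases of HBE1, 57.3% of those of HBG2, 44.8% of those of HBM and 13.1% of those of HBG1 belong to more than 1 gene. The treatment of reads that match several genes is not given in the sources used here. Values of HBA2, HBA1, HBG2, HBG1, HBE1, HBZ and HBM are therefore uncertain as values of single genes, while HBQ1, HBD and HBB can largely be told apart.

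The RefSeq promoter table (GRCh38.p14) holds an entry for 2 of the 10 members, HBD and HBM. HBD is shown because it changed against empty vector under both labels. In the 250 bases before its start, 3 motifs occur once each, and the matches do not overlap. A GATA factor motif (AGATAA) lies 78 bases before the start and is found on the other strand. A CCAAT box (the letters of its name) lies 153 bases before it. A TATA-type motif (ATAAAA) lies 31 bases before it. Both strands were searched, also for a KLF-type motif (CCACCC). The short stretches around the matches are given along the gene, with the match in capitals.
HBD, GATA factor motif (chr11:5234544-5234573, minus strand): atgaaaccctgcTTATCTtaaaccaacctg
HBD, CCAAT box (chr11:5234619-5234648, minus strand): atgacagaacagCCAATctcagggcaagtt
HBD, TATA-type motif (chr11:5234497-5234526, minus strand): gacaggaccagcATAAAAggcagggcagag
Of 35116 promoters of the same length, 9.17% hold the GATA factor motif, 32% the CCAAT box, 14.8% the TATA-type motif and 31.3% the KLF-type motif. The HBD window has no KLF-type motif, and the HBM window has none of the 4 motifs. A match here describes letters and says nothing of binding.

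Counts summed to between 16552237 and 24462819 per library in the gene table and between 36563252 and 41243796 in the bin files. The 10 globin genes made up 0.0440% to 0.0682% of the gene counts, and the 7 globin names 0.685% to 1.17% of the bin counts. The tables differ in aligner and counting, so levels are not compared across them. Levels are CPM, counts scaled to library size, with TMM factors that adjust for library composition, set over the libraries of each table. Erythroid markers were present in every library, among them GATA1 at 206.9 to 261.8 CPM in the gene table, and of 5 megakaryocytic genes GP9, PF4, PPBP and GP1BB were at 0 there, while ITGA2B stood at 19.16 to 28.97 CPM. MYB itself stood at 226.9 ± 4.53 CPM in libraries labelled MYB, 211.4 ± 8.38 CPM in libraries labelled NMYB and 215.2 ± 4.43 CPM with empty vector (SD, n = 3 each), with log2 fold changes against empty vector of 0.08 (adjusted p = 0.230 by edgeR) and −0.03 (adjusted p = 0.727). The targeted gene was thus not detectably raised, and directions in that experiment rest on the labels.

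In the gene table the order of the globin genes was set per kilobase of exon, counting all exon bases of a gene in GENCODE 29. For HBD this length was 1270 bases, where the transcript used for the 50-base stretches has 620. For HBQ1 both lengths were 536 bases. The places of HBQ1 and HBD below thus depend on this choice, and on transcript length HBD would stand above HBQ1. With empty vector HBA2 averaged 242.3 ± 102 CPM per kb, HBG1 129.9 ± 3.02, HBZ 85.2 ± 29.7, HBA1 55.5 ± 13.9, HBG2 23.7 ± 1.79, HBQ1 16.1 ± 5.54 and HBD 15.1 ± 0.369 (SD, n = 3 each). HBE1 followed with 2.54 ± 0.392, HBM with 0.526 ± 0.170 and HBB with 0.204 ± 0.0919 CPM per kb. The 3 libraries overlapped between HBA2 and HBG1, between HBZ and HBA1 and between HBQ1 and HBD, and did not overlap between other neighbours in this order. HBB had 5, 5 and 0 counts in libraries labelled NMYB, 1, 4 and 2 in libraries labelled MYB and 8, 4 and 3 with empty vector, and did not pass the filter on low counts. The low count of HBE1, 29 to 50 per library, stands beside its 90.0% of exon bases shared with other genes, and the part of that overlap in its level was not tested. HBG2 likewise had 57.3% of its exon bases shared and HBG1 13.1%, and the part of this in their order was not tested.

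**Figure D1:**
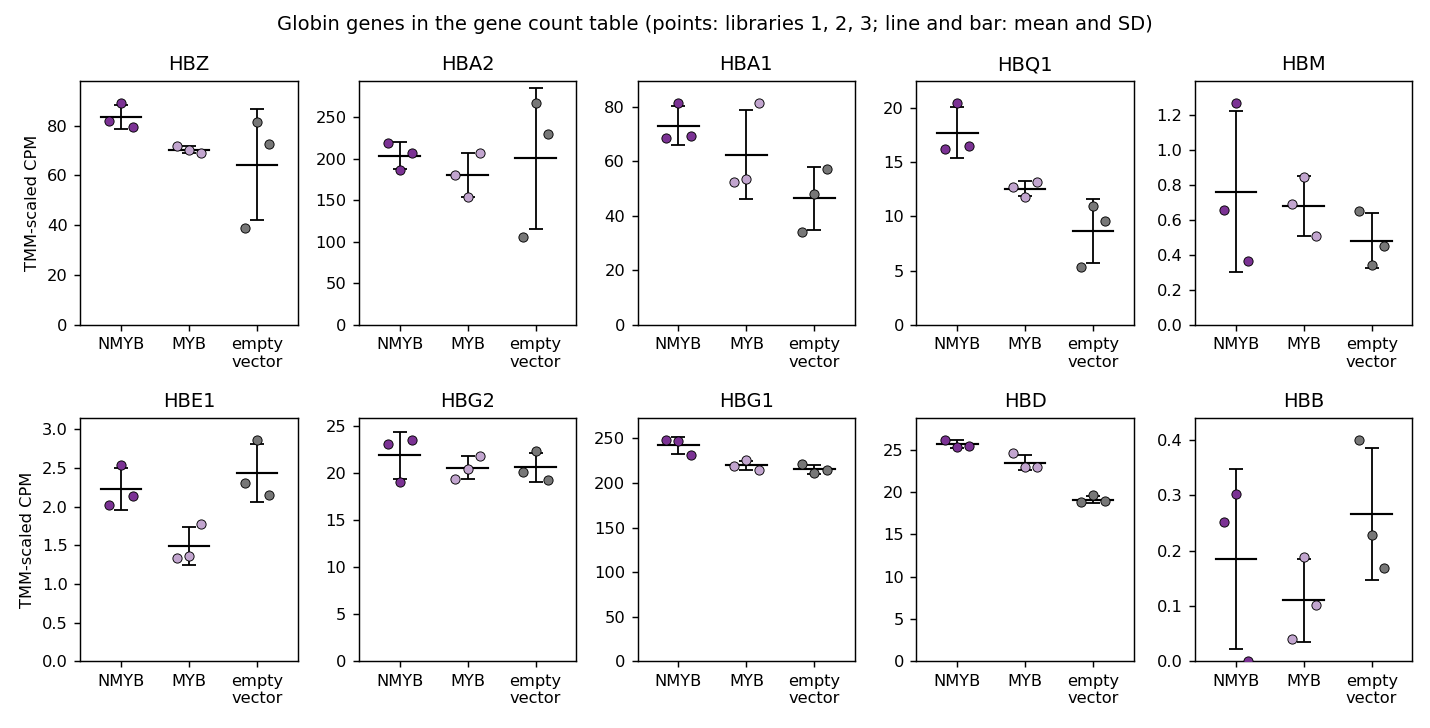
Each panel plots 1 globin gene in the gene count table, with TMM-scaled CPM on the vertical axis (from 0) and libraries labelled NMYB, MYB and empty vector from left to right; points are libraries, lines and bars the mean and SD. HBD of all 3 empty-vector libraries sits below every other library, and empty vector 1 is low for HBZ, HBA2 and HBQ1.

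The series' design text names MYB and an N-terminally truncated MYB as the isoforms overexpressed, and the label NMYB is not spelled out. Libraries labelled MYB overexpression are set against empty vector first. HBD rose slightly and HBE1 fell, and HBG1, the gamma gene with more counts in this table, was not called. Of 10 members 9 passed the filter, 1 was called higher and 1 lower (adjusted p below 0.05 over 15823 genes), where 22.3% of all genes tested were called, 9.62% higher and 12.7% lower. The members' median log2 fold change was 0.14, against 0.01 over all genes tested.

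HBD had 24.6, 22.9 and 23.0 CPM in libraries labelled MYB, against 18.8, 19.6 and 18.9 CPM with empty vector. In bulk samples a change in the share of cells with a transcript and a change in its amount per cell cannot be told apart. All 3 libraries labelled MYB were above all 3 controls, a log2 fold change of 0.30 (SE 0.0679, adjusted p = 0.00353 by edgeR), or 1.23-fold with a 95% interval from 1.11 to 1.36. HBE1 had 1.34, 1.37 and 1.77 CPM in libraries labelled MYB, against 2.30, 2.86 and 2.15 CPM with empty vector. The groups did not overlap, with a log2 fold change of −0.71 (SE 0.198, adjusted p = 0.0142). This call rests on 29 to 50 counts per library, and ended without MYB 1, MYB 2 or empty vector 2 (adjusted p = 0.0683, 0.0575 and 0.0777). HBG1 had 219.1, 225.5 and 215.0 CPM in libraries labelled MYB and 220.8, 210.8 and 215.1 CPM with empty vector, which overlap. Its log2 fold change was 0.03 (adjusted p = 0.692), with an interval of the fold from 0.957 to 1.09. HBG2 stood at −0.00 (adjusted p = 0.979).

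No gene of the alpha cluster was called under the label MYB. HBZ had 71.8, 70.2 and 69.2 CPM in libraries labelled MYB and 39.0, 81.5 and 72.5 CPM with empty vector. HBA2 had 180.7, 153.9 and 206.7 CPM in libraries labelled MYB and 105.1, 266.7 and 229.4 CPM with empty vector. Empty vector 1 was thus below every other library for both genes, as it was for HBA1 and HBQ1 but not for HBM. HBQ1 had 12.7, 11.8 and 13.2 CPM in libraries labelled MYB and 5.30, 10.997 and 9.61 CPM with empty vector. The alpha cluster made up 51.8% to 58.6% of globin counts in libraries labelled MYB, against 41.2% in empty vector 1, 61.4% in empty vector 2 and 59.1% in empty vector 3. KLF1, an erythroid activator of globin genes, was also lowest in empty vector 1, at 95.6 CPM against 112.4 to 178.7 CPM in the other 8 libraries; its part in these values was not tested. Log2 fold changes were 0.14 for HBZ (adjusted p = 0.753), −0.15 for HBA2 (adjusted p = 0.800), 0.55 for HBQ1 (adjusted p = 0.0859), 0.43 for HBA1 (adjusted p = 0.279) and 0.48 for HBM (adjusted p = 0.455). Without empty vector 1, HBZ stood at −0.11 and HBA2 was called lower at −0.44 (adjusted p = 0.0144). Without empty vector 2, HBQ1 was called higher at 0.77 (adjusted p = 0.00779) and HBA2 turned to 0.12 (adjusted p = 0.861). HBA1 had 52.3, 53.5 and 81.3 CPM in libraries labelled MYB and 34.0, 47.8 and 57.1 CPM with empty vector. HBM stayed below 1 CPM in both groups, at 10 to 18 counts in libraries labelled MYB and 6 to 13 with empty vector.

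The same question holds for the construct labelled NMYB overexpression, again against empty vector. HBD, HBG1 and HBQ1 rose, and none of the 9 members tested fell. Among all 15823 genes 24.9% were called, 12.6% higher and 12.4% lower. The members' median log2 fold change was 0.38, against 0.01 over all genes, and 8 of 9 were above 0. That median is the value of HBZ, which ran from 0.12 to 0.58 on leaving out 1 library. The share of all genes above 0 was not counted, and near-copies may share reads. This comparison and the previous one share their 3 control libraries.

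HBD had 26.2, 25.3 and 25.4 CPM in libraries labelled NMYB, against 18.8, 19.6 and 18.9 CPM with empty vector. It was higher by 0.42 on the log2 scale (SE 0.0684, adjusted p = 0.000171 by edgeR), or 1.34-fold with an interval from 1.22 to 1.48, and this call held on leaving out any 1 library, as did that for the label MYB. HBQ1, the theta gene, had 16.2, 20.4 and 16.5 CPM in libraries labelled NMYB, against 5.30, 10.997 and 9.61 CPM with empty vector. All libraries labelled NMYB were above all controls, with a log2 fold change of 1.05 (SE 0.203, adjusted p = 0.00420), or 2.07-fold with an interval from 1.51 to 2.83, and 0.78 without empty vector 1, where it was still called. HBG1 had 248.4, 247.0 and 231.4 CPM in libraries labelled NMYB, against 220.8, 210.8 and 215.1 CPM with empty vector. The groups did not overlap, with a log2 fold change of 0.17 (SE 0.0441, adjusted p = 0.00881), or 1.12-fold. That call ended without NMYB 1 or empty vector 2 (adjusted p = 0.0573 and 0.0547) and with no filter on low counts (adjusted p = 0.0723).

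The other alpha genes had HBA1 at 0.66 (adjusted p = 0.104), HBM at 0.60 (adjusted p = 0.345), HBZ at 0.38 (adjusted p = 0.334) and HBA2 at 0.03 (adjusted p = 0.966). HBA1 had 68.5, 81.3 and 69.3 CPM in libraries labelled NMYB, above the 34.0, 47.8 and 57.1 CPM with empty vector in every pair of libraries. It was called with DESeq2 (adjusted p = 0.0479) and in a fit over the 6 libraries compared (adjusted p = 0.0350). HBZ had 82.0, 89.0 and 79.5 CPM and HBA2 218.5, 185.8 and 206.3 CPM in libraries labelled NMYB, within the range of the controls except for HBZ in 2 libraries. Without empty vector 1 HBA2 turned to −0.28 (adjusted p = 0.0961). HBM had 13, 21 and 7 counts in libraries labelled NMYB and 13, 6 and 8 with empty vector. HBE1, with 2.02, 2.54 and 2.13 CPM in libraries labelled NMYB and 2.30, 2.86 and 2.15 CPM with empty vector, stood at −0.13 (adjusted p = 0.663), and HBG2 at 0.09 (adjusted p = 0.490).

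Between the labels NMYB and MYB, all 9 members tested were higher in libraries labelled NMYB (median log2 fold change 0.18, against 0.02 over all genes), and 0 passed the test by edgeR, where 1.14% of all genes did, 0.518% higher and 0.626% lower. At an unadjusted p below 0.05 there were 3, where 17.7% of all genes were, and DESeq2 called 0. The share of all genes that were higher under NMYB, called or not, was not counted. HBE1 stood at 0.58 (SE 0.201, adjusted p = 0.144), with an interval of the fold from 1.11 to 2.00, HBQ1 at 0.49 (SE 0.187, adjusted p = 0.208), its interval 1.05 to 1.88, and HBG1 at 0.14 (SE 0.0439, adjusted p = 0.113), its interval 1.03 to 1.17. HBD stood at 0.13 (adjusted p = 0.324), HBZ at 0.25, HBA1 at 0.23, HBA2 at 0.18, HBM at 0.11 and HBG2 at 0.10, with adjusted p from 0.596 to 0.912. HBE1 fell against empty vector under the label MYB and not under NMYB, but the direct difference did not pass the test.

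Genes around the clusters, known regulators of globin genes and genes of haem supply were read from lists beside the members. Over all genes tested 9.62% rose and 12.7% fell under the label MYB, and 12.6% rose and 12.4% fell under NMYB. Of 7 genes around the alpha cluster tested, 1 rose and 2 fell in libraries labelled MYB, with POLR3K, a subunit of RNA polymerase III, at 0.28 and the inactive rhomboid protease gene RHBDF1 at −0.40. NPRL3, whose introns hold the alpha enhancers, stood at −0.20 (adjusted p = 0.0991). In libraries labelled NMYB 3 rose and 0 fell, with the DNA glycosylase gene MPG at 0.39 and SNRNP25, a minor spliceosome gene, at 0.26. Of 12 genes around the beta cluster, 2 rose and 4 fell under the label MYB, and 0 rose and 4 fell under NMYB. HBBP1, the transcribed pseudogene between HBD and the gamma genes, had 45.4, 46.3 and 48.5 CPM in libraries labelled MYB, against 61.0, 61.1 and 56.4 CPM with empty vector, and fell by 0.35 (adjusted p = 0.000181 by edgeR). It had 54.4, 51.3 and 50.5 CPM in libraries labelled NMYB and fell there by 0.19 (adjusted p = 0.0191). Its neighbour HBD rose under both labels, and the pair share 6.93% of the exon bases of HBD. BGLT3, a noncoding RNA gene next to HBBP1, stood at −0.17 (adjusted p = 0.171) under the label MYB and at −0.25 (adjusted p = 0.0482) under NMYB. The median of the beta neighbours was −0.17 under MYB and −0.26 under NMYB, against 0.01 over all genes in both.

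Of 41 regulators tested, 6 rose and 9 fell in libraries labelled MYB, and 5 rose and 7 fell in libraries labelled NMYB. Among all genes tested 9.62% rose and 12.7% fell under MYB, and 12.6% rose and 12.4% fell under NMYB. Some erythroid factor genes were among them. TAL1, ZFPM1 and MAFK of the same list were not called under either label, each with a positive log2 fold change. LMO2 (−0.46 under MYB, −0.26 under NMYB) and NFE2 (−0.34 under MYB, −0.18 under NMYB) fell under both labels, and GATA1, the master regulator of red cell genes, fell under MYB (−0.29, adjusted p = 8.00e-05) and stood at −0.10 under NMYB (adjusted p = 0.0904). KLF1 rose by 0.26 (adjusted p = 0.0454) and 0.52 (adjusted p = 0.000800), and ZBTB7A, a repressor of gamma globin genes, by 0.27 and 0.26. BCL11A, the best-known repressor of gamma globin genes, did not pass the filter in any comparison. Between NMYB and MYB, GATA1 was called, at 0.18 (adjusted p = 0.0474). Of 18 haem supply genes tested, 1 rose and 8 fell under MYB, and 3 rose and 3 fell under NMYB. CPOX of haem synthesis (−0.43 under MYB, −0.38 under NMYB) and the transferrin receptor gene TFRC (−0.31 and −0.38) fell under both labels. AHSP, the chaperone of free alpha chains, had 3.01, 3.49 and 3.04 CPM in libraries labelled MYB, against 4.55, 4.98 and 4.18 CPM with empty vector (−0.52, adjusted p = 0.0115), and stood at −0.12 under NMYB (adjusted p = 0.593). Of the remaining globin family genes MB, CYGB, NGB and ADGB, 0 of 4 passed the filter in this table.

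Over the 9 libraries of the gene table, the log2 level of HBD ran closest to that of ATP6V0E1 (Pearson r = 0.99), NELFE (0.99) and CALR (0.98), that of HBG1 to RPL41 (0.97), SDF2 and OST4, and that of HBG2 to ASNSD1 (0.96), IMMP2L and SPC25. HBZ ran closest to RPS15 (0.98), MZT2B and ZFPM1, HBQ1 to MRM1 (0.99), THOC3 and SAPCD2, HBA1 to NDUFB2 (0.96), AVPI1 and EPOP, and HBA2 to ZNHIT1 (0.91), MRPL16 and SCAMP1-AS1. These describe 9 libraries in 3 groups, with totals from 16552237 to 24462819 counts, and the genes were picked as the highest among all. Empty vector 1 was below every other library for HBZ, HBA2, HBA1 and HBQ1, and its part in the correlations of these genes was not tested. Between members, HBZ ran with HBQ1 (r = 0.89) and HBA2 (0.83), HBQ1 with HBA1 (0.88) and HBD (0.85), and HBA2 with HBG1 at r = −0.06.

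The enhancer RNA experiments were counted in exon bins, pieces of exons cut wherever a transcript of the gene starts or ends an exon. A read that spans several bins counts in each, so sums are of bin counts and not of reads. HBA2, HBA1, HBQ1 and HBB have names of their own. HBZ and HBM share a name with the pseudogene HBZP1, HBD shares one with HBBP1, and HBE1, HBG2 and HBG1 share one of 99 bins with OR51B5, TRIM5 and 2 further transcripts. In that last name bins 27 to 31 held 38.0% to 46.6% of the counts in the group means and bins 10 to 18 held 45.5% to 51.9%. In the numbering of GENCODE 29 these blocks fall on the exons of HBE1 and of HBG2, and bins 1 to 9, with 5.25% to 5.86%, on those of HBG1. GENCODE 29 gives 93 bins for this name, 16 for the HBD name and 10 for the HBZ name, where the files have 99, 15 and 13, so this placement is not certain. The blocks were set after the values were seen. If the placement holds, the tables order these genes differently. Bins 10 to 18 had 128443 to 183544 counts per library and bins 1 to 9 had 13480 to 21724, whereas the gene table had 315 to 477 counts for HBG2 and 3680 to 5386 for HBG1. Bins 27 to 31 had 94140 to 200855 counts, whereas the gene table had 29 to 50 for HBE1. These counts are not per length, and the part of counting or aligner in the difference was not tested.

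**Figure D2:**
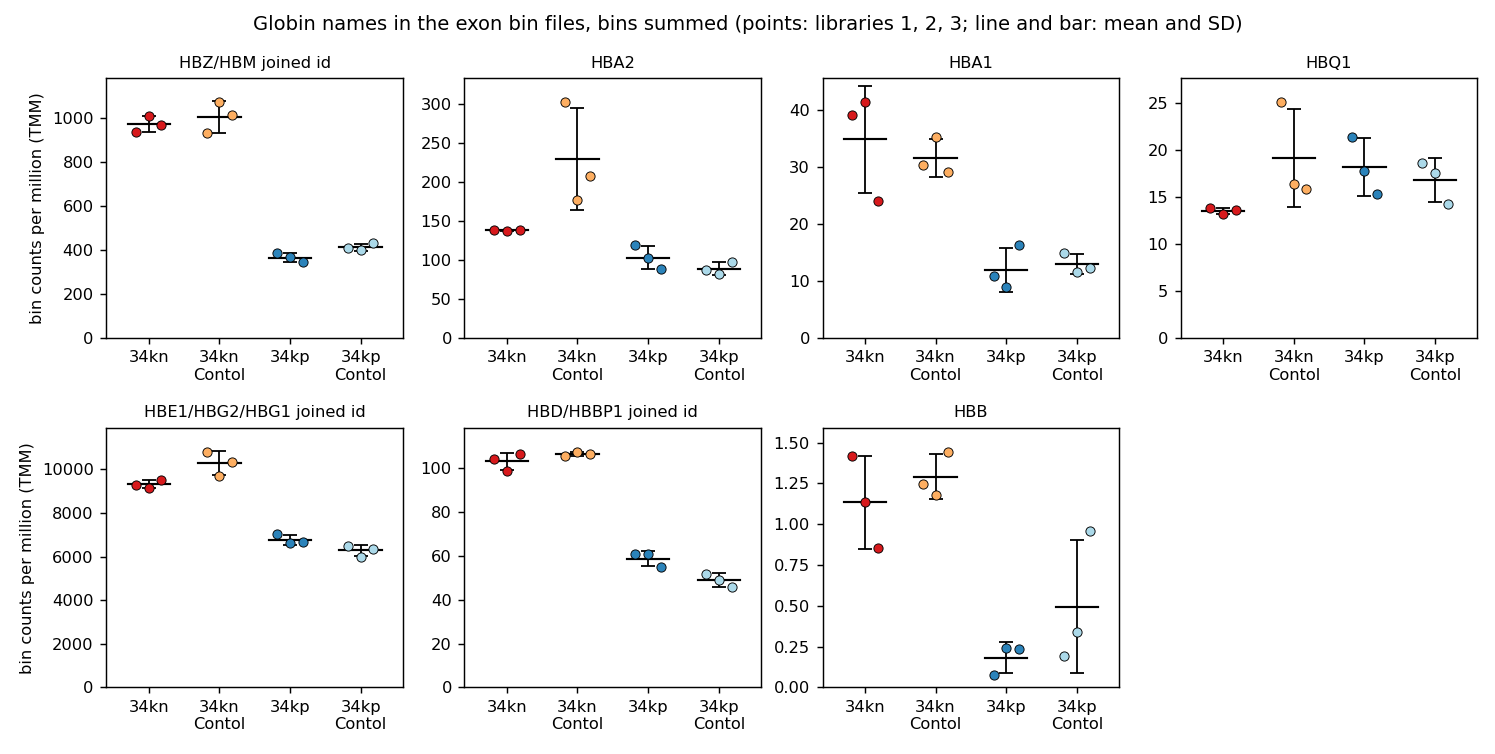
Each panel plots 1 globin name of the exon bin files, with TMM-scaled CPM of bin counts on the vertical axis (from 0) and groups 34kn, 34knContol, 34kp and 34kpContol from left to right; points are libraries, lines and bars the mean and SD. Except for HBQ1, the 6 libraries of the 34kn experiment sit above the 6 of the 34kp experiment in the panels of HBZ/HBM, HBA2, HBA1, HBE1/HBG2/HBG1 and HBD/HBBP1.

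The comparison of 34kn with 34knContol asks what this enhancer RNA changes. HBA2 and HBQ1 were lower in every 34kn library than in every control, but no globin name passed the test. Here and below, the share of all names whose groups did not overlap was not counted. By edgeR 0 of 7 names were called, as were 0.00% of all 16116 names tested. At an unadjusted p below 0.05 there were 3 globin names and 3759 names in all, or 23.3%. DESeq2 called 2 globin names, HBA2 (adjusted p = 0.0291) and HBQ1 (adjusted p = 0.0240), among 1289 in all. HBA2 had 137.7, 137.5 and 138.6 CPM in 34kn libraries, against 302.6, 177.0 and 207.2 CPM in 34knContol libraries. It stood at −0.74 on the log2 scale (SE 0.178, adjusted p = 0.0851), with an interval of the fold from 0.449 to 0.800. Control 1 was the highest, and without it HBA2 stood at −0.48 and was called (adjusted p = 0.00221), while without control 2 it stood at −0.89 (adjusted p = 0.00651). Without control 2 edgeR called 2982 names in all, so HBA2 then shared its call with many others.

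HBQ1 had 13.8, 13.2 and 13.6 CPM in 34kn libraries, against 25.1, 16.4 and 15.8 CPM in 34knContol libraries, a log2 fold change of −0.50 (SE 0.156, adjusted p = 0.0994). The joined HBE1, HBG2 and HBG1 name had 9278, 9144 and 9508 CPM in 34kn libraries, against 10804, 9709 and 10346 CPM in 34knContol libraries. These groups did not overlap either, with a log2 fold change of −0.15 (SE 0.0527, adjusted p = 0.127). The remaining names overlapped between the groups, with HBA1 at 0.14 (adjusted p = 0.676), the HBZ/HBM name at −0.05 (adjusted p = 0.627), the HBD/HBBP1 name at −0.05 (adjusted p = 0.650) and HBB at −0.19 (adjusted p = 0.712). HBA1 had 39.2, 41.4 and 24.1 CPM in 34kn libraries and 30.4, 35.3 and 29.1 CPM in 34knContol libraries. HBB was counted 51, 44 and 33 times in 34kn libraries and 48, 46 and 52 times in 34knContol libraries.

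KLF1, like HBA2 and HBQ1, did not pass the test but had groups that did not overlap. It had 51.5, 51.8 and 56.3 CPM in 34kn libraries, against 110.3, 67.7 and 81.3 CPM in 34knContol libraries (−0.71, adjusted p = 0.0668), and was highest in control 1, as HBA2 and HBQ1 were. Its part in their levels was not tested. ZBTB7A stood at −0.36 (adjusted p = 0.0877), GATA1 at −0.24 (adjusted p = 0.129), NPRL3 at −0.04 (adjusted p = 0.775), AHSP at 0.00 (adjusted p = 0.993) and BGLT3 at −0.03 (adjusted p = 0.947). Since no name passed the test anywhere, the lists had 0 calls by edgeR, with an unadjusted p below 0.05 for 4 of 7 alpha neighbours, 1 of 9 beta neighbours, 22 of 41 regulators and 6 of 18 haem supply genes. Their median log2 fold changes were −0.24, 0.13, −0.08 and 0.00, against 0.00 over all names.

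The comparison of 34kp with 34kpContol asks the same of the other enhancer RNA. No globin name was called by edgeR or DESeq2. Of 7 names 6 were tested, and 0 were called where 2.35% of 16662 names were, 0.630% higher and 1.72% lower; 2 globin names had an unadjusted p below 0.05, as had 17.9% of all names. These were the HBD/HBBP1 name, with 60.8, 60.6 and 54.8 CPM in 34kp libraries against 51.9, 49.2 and 45.8 CPM in 34kpContol libraries (0.26, SE 0.0905, adjusted p = 0.169), and the HBZ/HBM name. The HBZ/HBM name had 383.7, 365.6 and 346.0 CPM in 34kp libraries against 409.8, 397.4 and 429.8 CPM in 34kpContol libraries (−0.18, SE 0.0688, adjusted p = 0.198). The groups did not overlap for either name. Reads of low alignment quality made up 4.46% to 4.64% of counted items in 34kp libraries and 7.15% to 8.35% in 34kpContol libraries, and their part in these values was not tested.

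The joined HBE1, HBG2 and HBG1 name had 7031, 6628 and 6648 CPM in 34kp libraries and 6491, 5994 and 6359 CPM in 34kpContol libraries (0.10, SE 0.0567, adjusted p = 0.378). HBA2 had 118.4, 101.8 and 88.5 CPM in 34kp libraries and 86.9, 82.1 and 97.3 CPM in 34kpContol libraries (0.21, adjusted p = 0.359), with 34kp 1 the highest. HBQ1 stood at 0.11 (adjusted p = 0.741) and HBA1 at −0.12 (adjusted p = 0.794). HBB, counted 3, 10 and 9 times in 34kp libraries and 8, 14 and 39 times in 34kpContol libraries, did not pass the filter. Within the HBD/HBBP1 name, bins 1 to 9, which fall on HBD in the numbering of GENCODE 29, held 10.5%, 9.92% and 13.1% of the name's counts in 34kp libraries, against 16.9%, 18.4% and 18.4% in 34kpContol libraries. Fitted as rows of their own, bins 1 to 9 stood at −0.43 (SE 0.129, adjusted p = 0.107) and bins 10 to 15 at 0.37 (SE 0.0969, adjusted p = 0.0741). Neither block passed the test, and the difference between them was not tested. In that numbering bin 10 also falls on HBD, and bins 14 and 15 on both HBD and HBBP1. The blocks thus do not cleanly divide HBD from HBBP1.

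Among the lists in this comparison, 2 of 10 beta neighbours fell, the joined TRIM6 and TRIM34 name (−0.95, adjusted p = 0.00532) and the olfactory receptor gene OR52A5 (−1.91, adjusted p = 0.00754), and 0 rose. Over all names tested 0.630% rose and 1.72% fell. Of 18 haem supply genes 2 fell and 0 rose. They were ALAS2, the erythroid enzyme that begins haem synthesis (−0.61, adjusted p = 0.00309), and the mitochondrial iron importer gene SLC25A37 (−0.42, adjusted p = 0.00825). Of 41 regulators 1 rose, NR2F2 under a name joined with a microRNA (0.34, adjusted p = 0.0484). KLF1 stood at 0.15 (adjusted p = 0.697), ZBTB7A at 0.34 (adjusted p = 0.112), GATA1 at −0.06, AHSP at −0.01, BGLT3 at 0.44 (adjusted p = 0.125) and NPRL3 at −0.14. Of the 4 remaining globin family genes 1 was tested in each bin comparison, and 0 were called by edgeR (adjusted p below 0.05).

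The difference between the 2 enhancer RNA effects was tested over all 12 bin libraries. Each effect was measured in its own experiment, so enhancer RNA and experiment cannot be told apart. HBA2 was the globin name for which the effects differed. Of 7 names 0 were called higher and 1 lower, where 6.36% of 17323 names were called, 2.83% higher and 3.53% lower. The 34kn effect on HBA2 lay below the 34kp effect by −0.94 on the log2 scale (SE 0.209, adjusted p = 0.0173 by edgeR). The call ended without 34kp 1 or 34kpContol 2 (adjusted p = 0.0506 and 0.0593) and when HBA2 was read from its highest bin alone (−0.97, adjusted p = 0.0710). The joined HBE1, HBG2 and HBG1 name stood at −0.25 (SE 0.0750, adjusted p = 0.0569), the HBD/HBBP1 name at −0.31 (SE 0.101, adjusted p = 0.0774) and HBQ1 at −0.61 (SE 0.234, adjusted p = 0.121), and DESeq2 called the first pair (adjusted p = 0.0321 and 0.0214). HBA1 stood at 0.26, the HBZ/HBM name at 0.13 and HBB at 1.23 (adjusted p = 0.299), the last from 3 to 52 counts per library. Of 41 regulators 6 differed, all with the 34kn effect lower, among them ZBTB7A (−0.70, adjusted p = 0.0128) and LMO2 (−0.57, adjusted p = 0.0126), with KLF1 at −0.86 (adjusted p = 0.0557). Of 7 alpha neighbours 3 differed in the same direction, LUC7L (−0.54), POLR3K (−0.53) and SNRNP25 (−0.45).

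**Figure D3:**
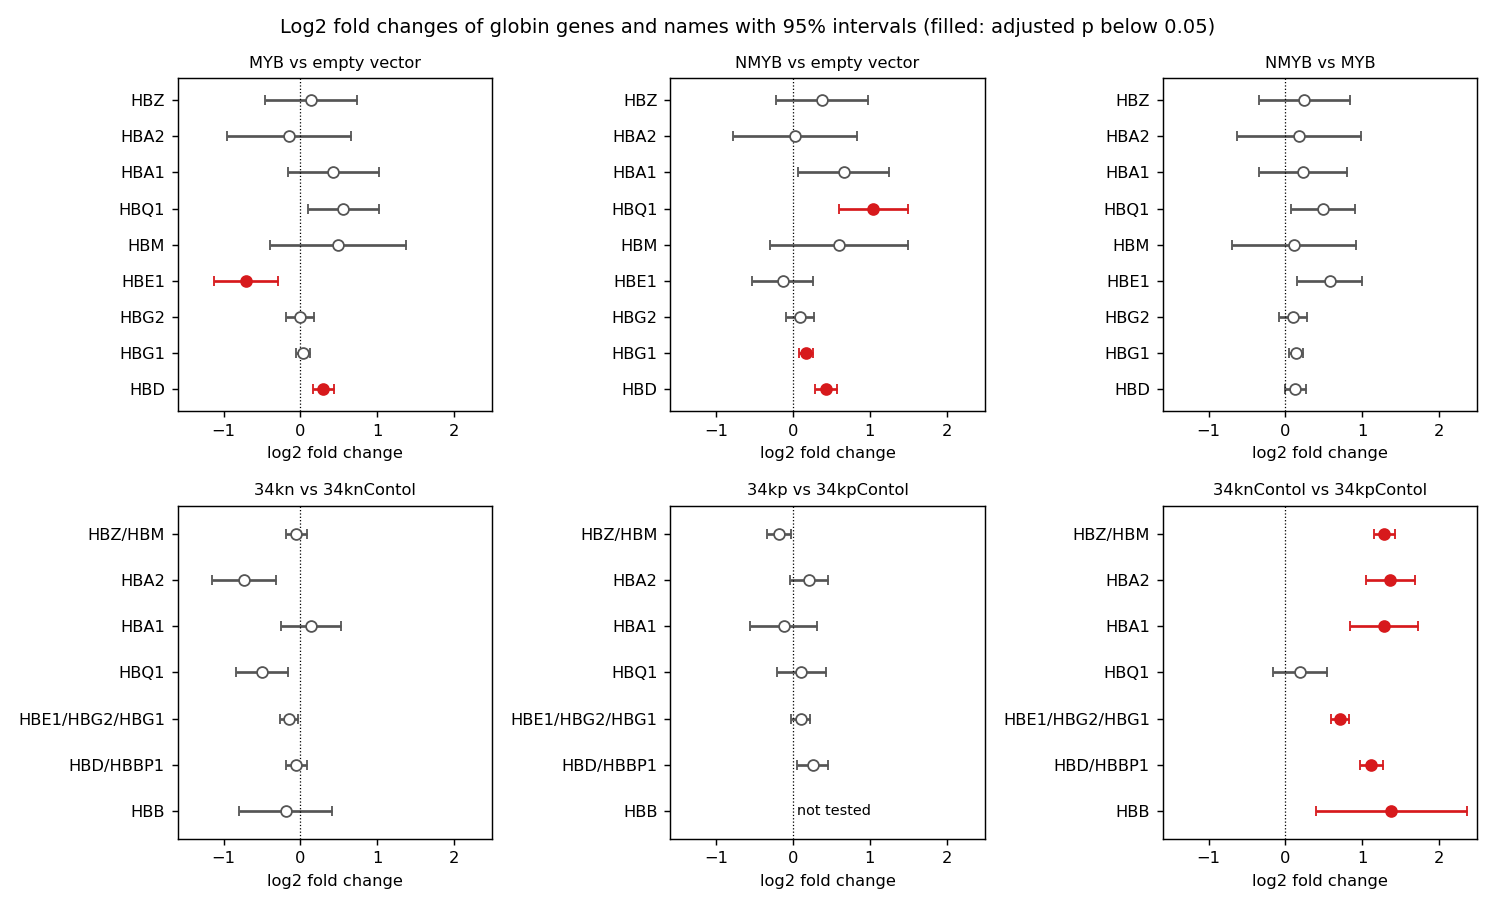
Points are log2 fold changes of globin genes (upper row, gene table) and globin names (lower row, exon bin files) by edgeR, with 95% intervals not adjusted over genes; filled red points have an adjusted p below 0.05. HBD is filled in both comparisons with empty vector, none is filled for 34kn or 34kp, and 6 of 7 names are filled between the control groups.

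The largest globin differences in these data lay between the control groups of the enhancer RNA experiments. Of 7 names 6 were higher in 34knContol libraries than in 34kpContol libraries and 0 were lower, where 37.0% of 17323 names were called, 18.2% higher and 18.9% lower. Experiment and any batch cannot be told apart here. The HBZ/HBM name had 930.5, 1073 and 1013 CPM in 34knContol libraries, against 409.8, 397.4 and 429.8 CPM in 34kpContol libraries (1.29, SE 0.0650, adjusted p = 1.62e-09 by edgeR), or 2.44-fold with an interval from 2.22 to 2.68. The HBE1, HBG2 and HBG1 name had 10804, 9709 and 10346 CPM in 34knContol libraries, against 6491, 5994 and 6359 CPM in 34kpContol libraries (0.71, SE 0.0533, adjusted p = 1.49e-07), or 1.64-fold. HBA2 differed by 1.37 (SE 0.150, adjusted p = 7.22e-06), HBA1 by 1.29 (SE 0.208, adjusted p = 0.000242) and the HBD/HBBP1 name by 1.12 (SE 0.0721, adjusted p = 2.57e-08). The 3 libraries of each group did not overlap for these names.

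HBB differed by 1.38 (adjusted p = 0.0286), from 48, 46 and 52 counts in 34knContol libraries against 8, 14 and 39 in 34kpContol libraries, and that call ended without 34knContol 1 or 3 or without 34kpContol 1 or 2 (adjusted p from 0.0511 to 0.115). HBQ1 stood at 0.19 (adjusted p = 0.394). Inside the joined beta name the blocks differed in size. Bins 27 to 31 stood at 1.01 (SE 0.0633), bins 10 to 18 at 0.52 (SE 0.0539) and bins 1 to 9 at 0.59 (SE 0.0700), while bins 32 to 48 stood at −0.02 (adjusted p = 0.871). Bins 27 to 31 held 48.2%, 46.1% and 45.5% of the name's counts in 34knContol libraries, against 37.0%, 38.1% and 38.8% in 34kpContol libraries. Bins 10 to 18 held 44.1%, 45.7% and 46.6% in 34knContol libraries, against 52.3%, 51.9% and 51.5% in 34kpContol libraries. The difference between blocks was not tested.

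**Figure D4:**
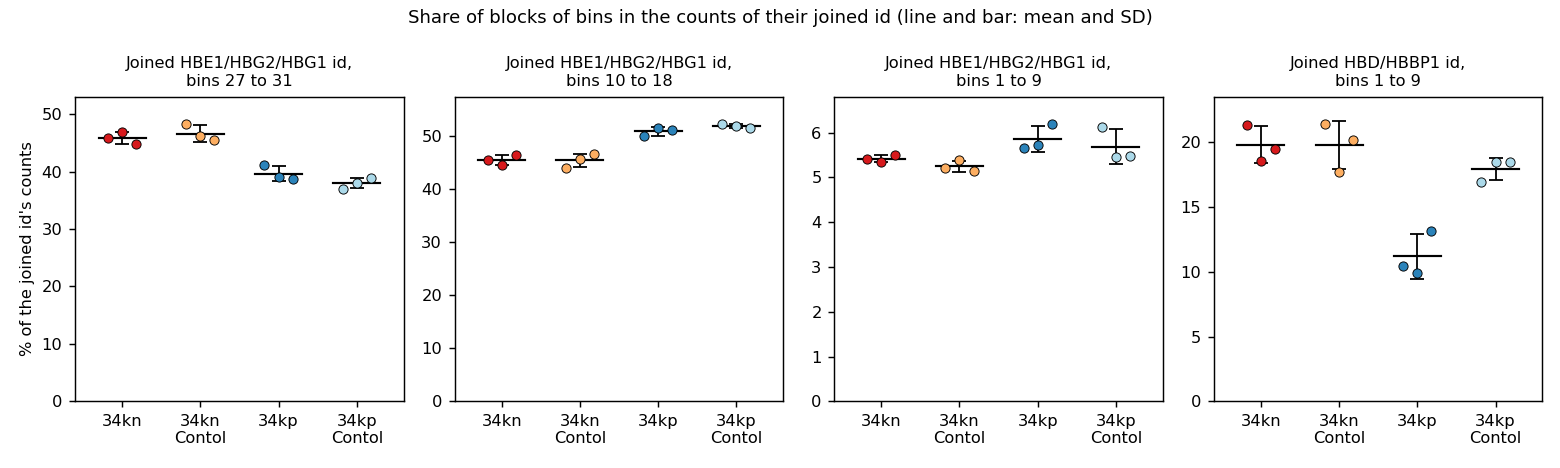
Each panel gives the share of 1 block of bins in the counts of its joined name (vertical axis, percent, from 0) for groups 34kn, 34knContol, 34kp and 34kpContol from left to right; points are libraries, lines and bars the mean and SD. Bins 27 to 31 of the HBE1/HBG2/HBG1 name hold a larger share in both groups of the 34kn experiment (means 45.8% and 46.6%) than in those of the 34kp experiment (39.6% and 38.0%), and bins 1 to 9 of the HBD/HBBP1 name are lowest in 34kp libraries (11.2%).

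Other genes of the erythroid programme differed between the control groups in both directions. Over all names tested 18.2% were higher in 34knContol libraries and 18.9% lower. AHSP had 25.2, 17.8 and 18.998 CPM in 34knContol libraries, against 9.58, 10.1 and 8.81 CPM in 34kpContol libraries (1.12, adjusted p = 4.62e-05), and UROD of haem synthesis was higher by 0.96. TFRC (−0.63) and SLC25A37 (−0.46) were lower, and of 18 haem supply genes 3 were higher and 6 lower. Of 41 regulators 14 were higher and 5 lower, with ATF4, a stress factor, at 0.98, GATA1 at 0.30 (adjusted p = 0.0383) and KLF1 at 0.39 (adjusted p = 0.0998). Around the clusters, BGLT3 had 3.01, 3.21 and 1.94 CPM in 34knContol libraries, against 5.93, 6.49 and 6.16 CPM in 34kpContol libraries (−1.18, adjusted p = 0.000185), opposite to the globin genes beside it. Of 11 beta neighbours 0 were higher and 5 lower, and of 7 alpha neighbours 4 were higher and 2 lower, with NPRL3 at −0.45 and LUC7L at 0.52.

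Use of single bins was tested with edgeR's diffSpliceDGE, which sets a bin's log2 fold change against that of its name. Of 164 globin bins 149 had any counts, and 98 were tested for 34kn and 94 for 34kp. For 34kn 3 were called, 2 higher and 1 lower, where 0.795% of 216197 bins were called, 0.0222% higher and 0.773% lower. All 3 lie in the joined HBE1, HBG2 and HBG1 name. That name holds several genes, so each bin is set against counts of other genes too. Use of exons within 1 gene was not tested. Bin 7 was counted 20, 33 and 23 times in 34kn libraries, against 57, 66 and 85 times in 34knContol libraries (−1.31, adjusted p = 0.00400). Bin 36 was counted 1385, 1589 and 1502 times in 34kn libraries, against 931, 1292 and 1031 times in 34knContol libraries (0.61, adjusted p = 0.00850). Bin 37 had 433, 474 and 396 counts in 34kn libraries, against 263, 376 and 324 in 34knContol libraries (0.58, adjusted p = 0.0405). In each case the groups did not overlap. In the numbering of GENCODE 29 bins 36 and 37 lie on OR51B5 and bin 7 on HBG1. All 3 calls ended without 34knContol 3, 34kn 1 or 34kn 3, with adjusted p from 0.0725 to 0.442. Those of bins 36 and 37 also ended without 34kn 2 (adjusted p = 0.282 and 0.539), and that of bin 37 without 34knContol 1 (adjusted p = 0.286). Without 34knContol 2 the count of globin bins called was 12, among 8399 bins in all. With limma it was 5, among 1293 in all, and did not include bin 37. For 34kp 0 were called by edgeR or limma, where 0.00862% of 220442 bins were, 0.000907% higher and 0.00771% lower, and 22 of the 94 globin bins (23.4%) had an unadjusted p below 0.05, against 2.18% of all bins. Bins of 1 name share reads, so these are not 22 separate results. In the numbering of GENCODE 29, most of the 22 fall on OR51B5, TRIM5 or an upstream exon shared with OR51B5. The others are bins 3 to 6 of the HBD/HBBP1 name, placed on HBD, and bin 7 of the joined HBE1, HBG2 and HBG1 name. That placement is not certain.

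Counts within the alpha names show how the near-copies were divided. HBA2 had 52.1% of its counts in bin 7, the exon 2 printed above, and 40.5% in bin 9 (chr16:173472-173675), whereas HBA1 had 78.7% in bin 9 (chr16:177283-177520) and 8.70% in bin 7. Over the 12 libraries the 205 shared bases of bin 7 were counted 33938 times under HBA2 and 921 times under HBA1. HBA1 bin 7 had 118, 148 and 3 counts in 34kn libraries and 14, 153 and 130 in 34knContol libraries, so that 1 library in each group was far below its replicates. HBA2 bins 3 to 5 (chr16:172894-173007), part of its first exon, held 3.58%, 3.49% and 4.58% of its counts in 34kn libraries and 9.30%, 3.44% and 7.04% in 34knContol libraries. They held 13.9%, 8.59% and 4.84% in 34kp libraries and 5.13%, 5.96% and 6.60% in 34kpContol libraries. The highest shares were thus in 34kp 1 and 34knContol 1, the libraries with the most HBA2 in their groups. In the HBZ/HBM name bins 4, 5 and 6 held 28.5%, 39.0% and 18.8% of the counts. In the numbering of GENCODE 29 these bins fall on the pseudogene HBZP1. The files have 13 bins for this name where GENCODE 29 has 10, so that numbering may not hold here. In the gene table HBZP1 had 0 to 2 counts per library and HBZ 779 to 1765. Bins 7 and 8 of the HBZ/HBM name had 124 and 122 counts in 34kpContol 2 and 73 and 74 in 34kpContol 3, and at most 8 in each of the other 10 libraries. The joined HBE1, HBG2 and HBG1 name was led by bins 28, 15 and 29, with 17.2%, 12.2% and 9.46% of its counts, and the HBD/HBBP1 name by bins 12, 13 and 14, with 24.7%, 17.4% and 12.8%. HBQ1 had 55.8% in bin 2, 28.6% in bin 1 and 15.6% in bin 3, and HBB 31.4% in bin 6, from 112 counts, 18.2% in bin 8 and 16.0% in bin 9.

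Over the 12 bin libraries the names closest in log2 level were CHCHD2, PFDN2 and CRACR2B for HBA2, the joined RPS10 name, DMAC1 and GRPEL2 for HBA1, and CYB561A3, ATP5F1D and PGGHG for HBQ1. For the joined HBE1, HBG2 and HBG1 name they were SELENOW, a joined RPL10 name and RPL30-AS1. For the HBZ/HBM name they were SLC7A5 and joined names of H3C4 and MARS1, and for the HBD/HBBP1 name SPATA5 and joined names of ANKRD11 and IGF2R. Pearson r was the measure, and no value is given because these libraries fall into 2 experiments whose levels stand apart.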

How the data were processed

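RNA of K562 cells was sequenced from TruSeq libraries, 3 in each of 7 groups. Per the submitters' processing notes, Trimmomatic 0.93 was used throughout with the GRCh38 build, HISAT2 2.2.1 and featureCounts 2.0.1 are named for the gene table, and STAR 2.7.10a for the bin files. The authors deposited raw counts per gene in 9 libraries and raw counts per exon bin in 12. The annotation release, strand setting and treatment of multiply matching reads are not given in the sources used here. Bin counts were summed per name, and rows of unassigned reads were left out of totals (reads of low alignment quality were 4.46% to 10.5%). edgeR 4.0.16 in R 4.3.3 fitted quasi-likelihood models with TMM scaling and filterByExpr (minimum count 10), 1 over the gene table, 1 over each enhancer RNA experiment and 1 over all 12 bin libraries for differences between them. P-values were Benjamini-Hochberg adjusted over all features tested, with calls below 0.05. Bin usage was tested with diffSpliceDGE, and limma 3.58.1 and DESeq2 1.42.0 were alternatives. The procedures were tested on simulated data. Levels used for likeness were log2 of CPM with 0.5 added. Every member was described, and of each other list the genes with the smallest adjusted p past the threshold, at most 4 per comparison, beside HBBP1, BGLT3, NPRL3, AHSP, BCL11A, ZBTB7A, KLF1 and GATA1. Likeness was measured for members and other genes with a mean of at least 10 CPM. Members and lists were chosen with earlier results of these data known. Libraries of a group differed beyond sampling noise (chi-square per degree of freedom 1.53 to 46.7 over 21 pairs), so each counted as 1 sample. Same-numbered libraries did not deviate together throughout (correlations −0.306 to 0.151), so numbers were not taken to pair samples. The lowest value came from the 34kp experiment. In the gene table same-numbered libraries stood at −0.036 to 0.151 and differently numbered ones at −0.185 to 0.131. A fit with a replicate block was therefore run as an alternative.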

Additional observations from a re-analysis of the deposited data

Results flagged for a closer look

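The differences of HBA2 from control in the 2 enhancer RNA experiments differed from each other. Enhancer RNA and experiment cannot be told apart here, and edgeR called neither difference from control on its own. The 34kn effect minus the 34kp effect was −0.94 on the log2 scale (SE 0.209, adjusted p = 0.0173 by edgeR over all 12 bin libraries). HBA2 was lower in 34kn than in 34knContol libraries in 3 of 3 libraries, and the 34kp libraries overlapped with 34kpContol. Leaving out each library in turn gave −1.11 to −0.69, and the call ended without 34kp 1 (−0.83, adjusted p = 0.0506) and without 34kpContol 2 (−0.89, adjusted p = 0.0593). It also ended when HBA2 was read from its highest bin alone. KLF1 stood at −0.86 in the same test (adjusted p = 0.0557), and its part in the difference was not tested.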

How the results depend on the processing

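Apart from leaving out a library, 306 single-gene or single-bin values kept direction and side of the threshold, 15 gained a call, 4 lost one and 1 turned, HBA2 under NMYB at −0.0084 with no filter on low counts. Counts of globin calls moved by over 1.5 times in 11 cases and did not in 39. Between NMYB and MYB the count was 0, and 1 with no filter, 1 with the replicate block (HBG1) and 1 in the fit over 6 libraries (HBQ1), where 181, 656, 1184 and 60 genes were called in all. For 34kn it was 0, and 1 with no filter and 2 with DESeq2 (0, 1572 and 1289 in all). For 34kp it was 0, and 1 in the fit over 12 libraries (392 and 817 in all). For the difference of effects it was 1, and 3 with no filter, 3 with DESeq2, 0 with the highest bin and 4 with bin blocks, an alternative chosen after seeing the data (1102 in all at first, and 2085 with no filter, 2056 with DESeq2 and 1105 with bin blocks). Globin bins called for 34kn were 3, and 5 with limma. The cause was not tested. The replicate block also called HBQ1 under MYB (adjusted p = 0.0395) and changed no other globin call. Leaving out 1 library gave 1 to 3 globin calls for MYB (2491 to 2889 in all), 2 to 3 for NMYB (2711 to 3900), 0 to 3 for 34kn (0 to 2982), 0 to 4 for the difference of effects (380 to 2747), 0 to 12 globin bins for 34kn (255 to 8399) and 0 to 2 for 34kp (4 to 60). The highest counts of globin calls for 34kn and the difference of effects came with the highest totals. It turned HBZ (−0.11 to 0.35), HBG2 (−0.0489 to 0.0619) and HBA2 (−0.44 to 0.12) under MYB, HBA2 under NMYB (−0.28 to 0.28), HBM between NMYB and MYB (−0.43 to 0.45), HBA1 for 34kn (−0.0058 to 0.35), HBQ1 (−0.0208 to 0.22) and HBA1 (−0.40 to 0.0717) for 34kp, and HBQ1 between controls (−0.0553 to 0.31). HBB, HBM and HBE1 had at most 50 counts per library in the gene table, which limits the precision of their values there.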
